A study of Mus musculus with 12 samples.

Results

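Genes of the collagenous matrix and of the cells that lay it down were examined in contused mouse spinal cord of 3 genotypes: Il1a KO, without interleukin-1 alpha, Il1b KO, without interleukin-1 beta, and wild type. The set holds 37 genes named by symbol: fibrillar, interstitial and basement membrane collagens, laminins and nidogen, small proteoglycans, cross-linking enzymes, elastin, secreted matrix proteins, and genes of fibroblasts, pericytes and smooth muscle. Of these, 35 were measured by a probe set with a single gene symbol, each by 1 probe set, among 19938 genes in all. Loxl2 and Fbn1 had no such probe set and were not analysed here. Every animal had received a spinal contusion of 50 kdyn, and RNA came from a cord segment of 6 mm over the lesion, taken at 24 h from mice aged 8 to 12 weeks on a C57BL/6 background. There were 4 arrays from Il1a KO, 4 from Il1b KO and 4 from wild type, all 3 groups injured. The labels call the arrays biological replicates without naming animals, so a p-value measures the spread between these arrays. No uninjured cord and no other time is among the arrays, so the values compare genotypes after injury and do not show what the injury itself did.

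Fibrillar collagens are triple helices that assemble into fibres, are bound by small leucine-rich proteoglycans that set fibre width, and are joined covalently by lysyl oxidases. Basement membranes are thinner sheets of collagen IV, laminin and nidogen that wrap vessels, and in the cord the pericytes of small vessels sit inside them. In uninjured cord the fibrillar matrix lies mostly in the meninges and around larger vessels, and after injury fibroblasts and cells of the perivascular niche that carry the PDGF receptor beta build a fibrotic scar over the following days. Interleukin-1 alpha and interleukin-1 beta act through the same receptor, which mural cells, fibroblasts and endothelium can carry.

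The labels were checked first. Il1b was at 6.19, 6.63, 6.47 and 6.39 on the log2 scale in Il1b KO, against 7.83, 7.68, 7.78 and 8.06 in wild type. Il1a was at 4.97, 4.87, 5.03 and 5.03 in Il1a KO and 4.85, 5.31, 5.01 and 5.24 in Il1b KO, against 6.22, 5.78, 5.74 and 5.76 in wild type. Each deleted gene was thus below wild type in all 4 of its knockout arrays, and Il1a was also below wild type in all 4 Il1b KO arrays. Il1a therefore did not tell the knockouts apart (log2 difference -0.13, limma adjusted p = 0.8495). Il1b did, at 8.18, 8.05, 8.13 and 7.96 in Il1a KO. Il1a KO replicate 1 carried the sex-linked profile of a male (Xist 6.47 against 11.9 to 12.2 in the other arrays), and the labels give no sex. Values of 1 gene are listed below in the order of replicates 1 to 4, and the labels state no pairing of equal numbers between genotypes.

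In Il1b KO, 2 of the 35 matrix genes rose against wild type, Rgs5, a pericyte gene, by 1.16-fold and Lama2, a laminin chain, by 1.21-fold, and 0 fell (limma, Benjamini-Hochberg adjusted p under 0.05). Over all genes 0.813% passed this test in Il1b KO, 0.421% higher and 0.391% lower. The collagens did not pass: their log2 fold changes in Il1b KO lay between -0.02 and 0.07. At an unadjusted p under 0.05, 5 of the 35 were higher (Rgs5, Lama2, Ogn, Slc6a13 and Thbs2), against 8.42% of all genes, and 1 was lower (Acta2), against 4.58%. Of the 35, 23 were above 0, against 52.0% of all genes, and their median log2 fold change was 0.05, against 0.00 over all genes.

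In Il1a KO, 0 of the 35 passed against wild type by limma, where 0.171% of all genes did, and 7 had an unadjusted p under 0.05 (Lama2, Rgs5 and Ogn higher, Lum, Igf2, Fstl1 and Col5a2 lower), against 8.32% of all genes. The smallest adjusted p of a member was 0.181, for Lama2. Of the 35, 25 had a log2 fold change below 0, against 49.8% of all genes, and their median was -0.07. Between Il1a KO and Il1b KO 0 of the 35 passed, where 0.652% of all genes did, and 8 had an unadjusted p under 0.05, each of them lower in Il1a KO, against 4.80% of all genes that were lower at that p. In that comparison 31 of the 35 were below 0, against 52.7% of all genes, with a median of -0.09 against 0.00. Members vary together from array to array, as given further on, so such counts of signs are not counts of independent genes. The 2 comparisons with wild type share the wild-type arrays, and the comparison between the knockouts shares its arrays with both. Changes of 0.25 (log2) were simulated in genes drawn from all genes, with each gene's own spread and independent noise. Of these, 48% were recovered for Il1a KO, 47% for Il1b KO and 52% between the knockouts, so small changes could be missed. Each simulated comparison held 200 changed genes, at 0.25 or 0.5, and the adjusted threshold loosens as more genes change. In the data 34 genes passed in Il1a KO, so recovery there may be lower than simulated. The median SD within groups was 0.1125 in the members and 0.0841 over all genes, so recovery among the members may be lower.

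**Figure D1:**
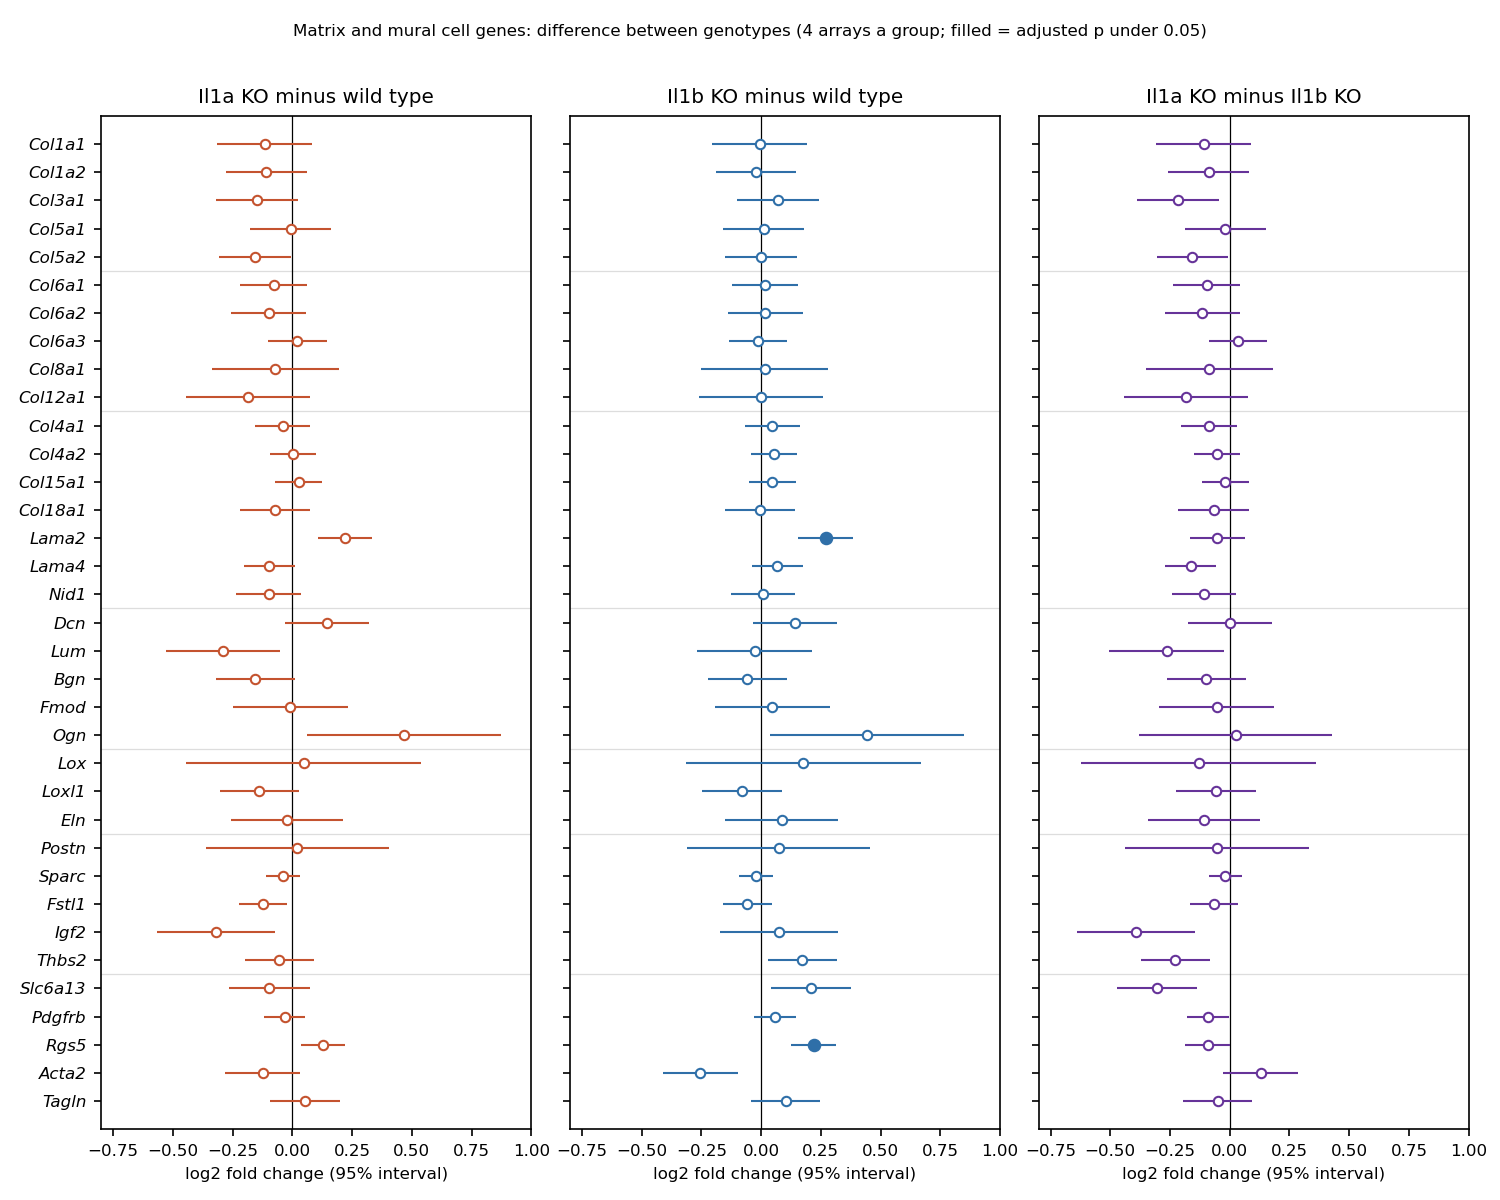
Log2 fold change (x axes) of each of the 35 measured matrix genes (rows, grouped by role) in Il1a KO against wild type, Il1b KO against wild type and Il1a KO against Il1b KO, with lines for the 95% interval from limma and filled symbols for genes with an adjusted p under 0.05. Rgs5 and Lama2 in Il1b KO are the filled points, and the widest intervals are those of Lox, Ogn and Postn.

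Among genes that mark the matrix-making cells, the pericyte gene Rgs5 rose in Il1b KO. Rgs5, on chromosome 1, encodes a regulator of G-protein signalling and is a marker of pericytes. Its level was 9.29, 9.18, 9.30 and 9.26 in Il1b KO, against 9.06, 9.07, 9.01 and 9.003 in wild type. The groups did not overlap, and the rise was 0.22 on the log2 scale (1.16-fold, SE 0.0431, 95% interval 0.13 to 0.31, limma adjusted p = 0.033). In Il1a KO it was at 9.24, 9.13, 9.09 and 9.19, also above all wild-type arrays, with a log2 difference of 0.13 that did not pass (interval 0.03 to 0.22, adjusted p = 0.392). Between the knockouts it differed by -0.09 (adjusted p = 0.643). Among the 35 members, 2 had no overlap between Il1b KO and wild-type arrays, Rgs5 and Lama2, against 7.00% of all genes. In bulk tissue, more pericytes and more transcript per pericyte cannot be told apart. The call on Rgs5 was lost in 5 of the 8 fits that left out 1 array, those without wild type replicate 3 or 4 or Il1b KO replicate 1, 3 or 4, with an adjusted p of up to 0.124. It was also lost when the arrays were quantile-normalized again (0.18, adjusted p = 0.0569).

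Other pericyte markers, from a list of 11 that are not members, were read beside it. Abcc9, the regulatory subunit of the potassium channel of pericytes, was the 1 of 11 that passed in Il1b KO, where 0.813% of all genes did. It was at 8.74, 8.72, 8.77 and 8.79 in Il1b KO, against 8.50, 8.57, 8.56 and 8.58 in wild type, a rise of 0.20 (interval 0.12 to 0.28, limma adjusted p = 0.0187). In Il1a KO it was at 8.66, 8.65, 8.63 and 8.74, a log2 difference of 0.12 that did not pass (adjusted p = 0.328). Its call too was lost without wild type replicate 1 or Il1b KO replicate 1, 3 or 4 (adjusted p up to 0.0766), and with only 2 groups in the fit (adjusted p = 0.0928). The 2 brightest markers of the list did not pass in Il1b KO: Vtn, encoding vitronectin, was at a fold change of 0.28 on the log2 scale (adjusted p = 0.233) and Mcam at -0.03 (adjusted p = 0.871). Of the 11 markers 6 were above 0 and 5 below in Il1b KO. At an unadjusted p under 0.05, 3 were higher, against 8.42% of all genes, and 1 lower, against 4.58%. The mean of the 11 markers ran from 8.50 to 8.56 in Il1b KO and from 8.35 to 8.53 in wild type, where replicate 3 was the low array, and overlapped. Pdgfrb, the receptor that recruits pericytes to vessels, averaged 9.94 ± 0.0485 in Il1b KO and 9.88 ± 0.0575 in wild type (SD, n = 4 each), a log2 difference of 0.06 (interval -0.03 to 0.15, adjusted p = 0.574). Rgs5, Abcc9 and Lama2 lay on 3 chromosomes. Of the 20 nearest measured genes of each, 0 passed in Il1b KO around Rgs5, 1 (Bcat1) around Abcc9 and 0 around Lama2. Over all genes 0.813% passed in Il1b KO.

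Smooth muscle genes did not pass in either knockout. Acta2, smooth muscle actin, was at 9.76, 9.83, 9.95 and 9.71 in Il1b KO, against 10.13, 10.17, 9.93 and 10.03 in wild type. The groups overlapped through Il1b KO replicate 3 and wild type replicate 3, and the log2 difference of -0.25 did not pass (interval -0.41 to -0.10, adjusted p = 0.152). Tagln, an actin-binding protein of the same cells, had a log2 fold change of 0.10 in Il1b KO (adjusted p = 0.555), and of the 9 other smooth muscle markers 0 passed in either knockout, with 8 of 9 below 0 in Il1b KO. Slc6a13, a GABA and taurine transporter of meningeal fibroblasts, was at 8.62, 8.64, 8.46 and 8.56 in Il1b KO, against 8.22, 8.61, 8.20 and 8.40 in wild type. The groups overlapped only through wild type replicate 2, and the log2 difference of 0.21 did not pass (adjusted p = 0.279). Without that array it was 0.29 and passed (adjusted p = 0.0432).

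**Figure D2:**
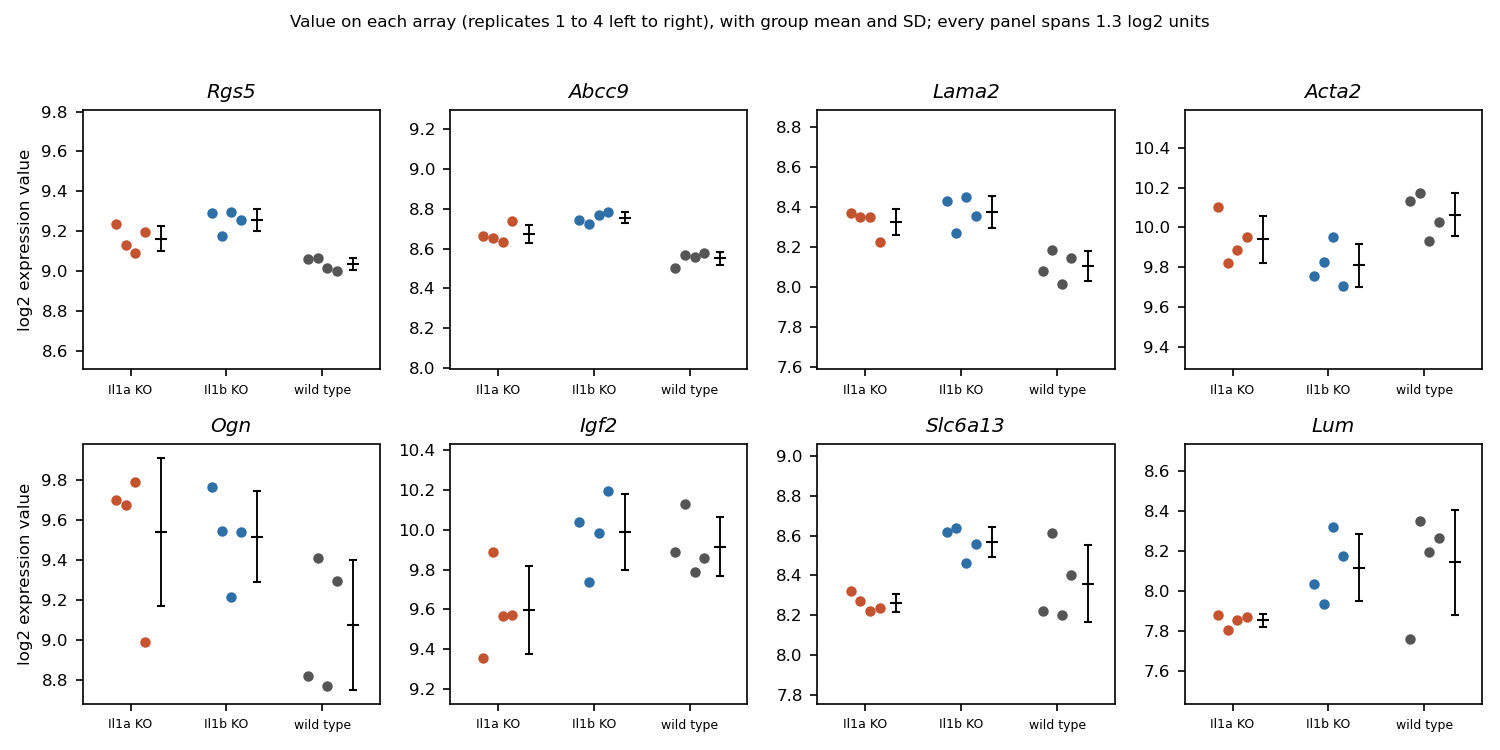
Log2 level in each array (points) with the group mean and SD (bars), for Il1a KO, Il1b KO and wild type, in 8 genes. Rgs5, Abcc9 and Lama2 have all Il1b KO arrays above all wild-type arrays, while in Acta2, Ogn, Igf2, Slc6a13 and Lum the arrays of these 2 groups overlap.

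Of the 7 basement membrane members, 1 passed, Lama2 in Il1b KO. Lama2 encodes the alpha 2 chain of laminin, present in the basement membranes of muscle, Schwann cells and the outer wall of cord and brain vessels. Its level was 8.37, 8.35, 8.35 and 8.23 in Il1a KO and 8.43, 8.27, 8.45 and 8.36 in Il1b KO, against 8.08, 8.18, 8.01 and 8.14 in wild type. Every knockout array was above every wild-type array. The rise in Il1b KO was 0.27 (1.21-fold, SE 0.0531, interval 0.16 to 0.39, limma adjusted p = 0.033), and the difference of 0.22 in Il1a KO did not pass (interval 0.11 to 0.33, adjusted p = 0.181). The knockouts differed by -0.05 (adjusted p = 0.879), so the pass in one and not in the other shows no difference between them. The call was lost in 6 of the 8 fits without 1 array, those without wild type replicate 1, 3 or 4 or Il1b KO replicate 1, 3 or 4 (adjusted p up to 0.119), while the difference stayed between 0.24 and 0.31. Lama2 is also a gene of muscle and Schwann cells. The mean of 14 skeletal muscle markers was 7.21 to 7.37 in Il1b KO, against 7.29 to 7.64 in wild type. The mean of 6 Schwann cell markers was 8.44 to 8.65 in Il1a KO and 8.47 to 8.61 in Il1b KO, against 8.40 to 8.54 in wild type, with 0 of 6 past the test. Markers of mature oligodendrocytes, 9 of 9 above 0 in each knockout with 0 past the test, had a mean of 11.70 to 11.84 in Il1a KO and 11.62 to 11.75 in Il1b KO, against 11.53 to 11.66 in wild type. The Il1a KO and wild type arrays did not overlap in the oligodendrocyte mean, and the part of these lists in the result was not tested.

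The other basement membrane members were close to wild type. Col4a1 and Col4a2, which encode the chains of the main vascular collagen IV and are neighbours on chromosome 8, had log2 fold changes of -0.04 and 0.00 in Il1a KO and of 0.05 and 0.06 in Il1b KO. Their deviations from the group means went together (r = 0.708 over the 12 arrays, a description). Lama4, the laminin chain of vascular endothelium, was at 8.28, 8.36, 8.28 and 8.23 in Il1a KO and 8.33, 8.53, 8.52 and 8.43 in Il1b KO, against 8.33, 8.44, 8.36 and 8.41 in wild type. It was thus lowest in Il1a KO, but its difference of -0.16 from Il1b KO did not pass (adjusted p = 0.313). Nid1, the linker of laminin and collagen IV, differed by -0.10 in Il1a KO and 0.01 in Il1b KO, and the collagens with an endostatin domain, Col15a1 and Col18a1, by 0.03 and -0.07 in Il1a KO and by 0.05 and 0.00 in Il1b KO.

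The windows before annotated transcript starts were taken from RefSeq (GRCm38.p6), which held 32 windows for 24 of the 35 members, 14 of them at a start inside the outer limit of the gene. The only Lama2 window was of that kind, 249 bases inside, and is not shown. Windows at the outer start are shown for Rgs5, which rose, and for Col1a2, a fibrillar collagen that did not pass, so that the letters can be set beside the values. The Rgs5 window is chr1:169655251-169655500, plus strand, and the Col1a2 window chr6:4505368-4505617, plus strand. Capitals mark a CCAAT box, read as CCAAT or its complement ATTGG.
Rgs5: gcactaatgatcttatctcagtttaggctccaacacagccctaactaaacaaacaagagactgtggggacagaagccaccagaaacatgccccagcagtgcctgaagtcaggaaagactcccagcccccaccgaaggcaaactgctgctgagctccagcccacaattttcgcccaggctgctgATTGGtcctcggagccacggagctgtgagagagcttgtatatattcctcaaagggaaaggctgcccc
Col1a2: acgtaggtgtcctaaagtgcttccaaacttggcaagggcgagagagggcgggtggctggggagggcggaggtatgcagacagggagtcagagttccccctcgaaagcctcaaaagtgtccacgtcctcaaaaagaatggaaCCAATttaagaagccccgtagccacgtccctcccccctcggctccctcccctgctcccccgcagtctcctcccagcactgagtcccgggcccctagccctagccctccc
The motif began 67 bases before the start in Rgs5 and 109 in Col1a2. In windows of 250 bases and on both strands, CCAAT was found in 9 of 32 member windows and 33.85% of all 32851 windows, and a CArG box, the motif of serum response factor, in 2 (Igf2 and Lama2) and 1.47%. TATAAA was found in 4 member windows (Col3a1, Ogn, Postn and Thbs2) and 12.37% of all, TGANTCA in 1 (Col6a1) and 6.75%, and an NF-kB site in 4 (Col4a2, Col6a2, Slc6a13 and Thbs2) and 7.25%. A match is a match of letters only, and these searches say nothing of binding.

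The fibril-forming collagens did not pass in any comparison. Col1a1, the alpha 1 chain of collagen I, was at 9.45, 9.62, 9.37 and 9.31 in Il1a KO and 9.58, 9.51, 9.50 and 9.60 in Il1b KO, against 9.60, 9.72, 9.25 and 9.65 in wild type. The lowest and the highest of the 12 arrays were both wild type. The log2 fold change was -0.12 in Il1a KO (interval -0.31 to 0.08, adjusted p = 0.849) and -0.01 in Il1b KO (interval -0.20 to 0.19, adjusted p = 0.987). Col1a2, whose window is printed above, followed it closely, with -0.11 in Il1a KO and -0.02 in Il1b KO. Col3a1, the collagen of distensible tissue, was at 8.82, 9.08, 8.85 and 8.75 in Il1a KO and 9.03, 9.09, 9.12 and 9.14 in Il1b KO, against 9.04, 9.14, 8.80 and 9.11 in wild type. Wild type replicate 3 was the low array of its group in Col1a1, Col1a2 and Col3a1. The Col3a1 difference was -0.15 in Il1a KO, 0.07 in Il1b KO and -0.22 between Il1a KO and Il1b KO (interval -0.39 to -0.05, adjusted p = 0.472). Col5a2, which together with Col5a1 helps to nucleate fibres, differed by -0.16 in Il1a KO (adjusted p = 0.566) and 0.00 in Il1b KO, and Col5a1 by -0.01 and 0.01.

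The log2 fold changes of the interstitial collagens in Il1b KO lay between -0.01 and 0.02, with intervals as wide as -0.25 to 0.28 (Col8a1). The chains of collagen VI, Col6a1, Col6a2 and Col6a3, which form beaded filaments near cells, had log2 fold changes of -0.08, -0.10 and 0.02 in Il1a KO and 0.02, 0.02 and -0.01 in Il1b KO. Col8a1, a short-chain collagen of vessel walls, was at -0.07 in Il1a KO and 0.02 in Il1b KO. Col12a1, which sits on the surface of collagen fibres, was at -0.19 in Il1a KO and 0.00 in Il1b KO, and none of the 5 passed or had an unadjusted p under 0.05 in any comparison.

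Of the small leucine-rich proteoglycans, Ogn and Lum had the largest differences and neither passed. Ogn, which encodes osteoglycin and is expressed by meningeal fibroblasts, was at 9.70, 9.68, 9.79 and 8.99 in Il1a KO and 9.77, 9.55, 9.21 and 9.54 in Il1b KO, against 8.82, 9.41, 8.77 and 9.29 in wild type. Il1a KO replicate 4 lay among the wild-type arrays, as did Il1b KO replicate 3. The log2 differences of 0.47 in Il1a KO (interval 0.06 to 0.87, adjusted p = 0.504) and 0.44 in Il1b KO (interval 0.04 to 0.85, adjusted p = 0.340) had wide intervals. Lum, which encodes lumican, was at 7.88, 7.80, 7.86 and 7.87 in Il1a KO and 8.04, 7.93, 8.32 and 8.18 in Il1b KO, against 7.76, 8.35, 8.19 and 8.27 in wild type. It was even across Il1a KO, and wild type replicate 1 was the only wild-type array below them. The difference of -0.29 in Il1a KO did not pass (adjusted p = 0.465), and without wild type replicate 1 it was -0.42 and passed (adjusted p = 0.0499). Dcn, which encodes decorin and lies next to Lum on chromosome 10, had a log2 difference of 0.14 in each knockout (adjusted p = 0.714 in Il1a KO and 0.490 in Il1b KO). Bgn, encoding biglycan and X-linked, differed by -0.16 in Il1a KO and -0.06 in Il1b KO, and Fmod, encoding fibromodulin, by -0.01 and 0.05.

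The cross-linking enzymes and elastin showed spread between arrays rather than between genotypes. Lox, lysyl oxidase, was at 8.87, 9.73, 8.76 and 8.34 in Il1a KO and 8.95, 8.98, 8.91 and 9.36 in Il1b KO, against 8.58, 9.15, 8.96 and 8.82 in wild type. Both the highest and the lowest of the 12 arrays were Il1a KO. The log2 difference was 0.05 in Il1a KO (interval -0.45 to 0.54) and 0.18 in Il1b KO, and neither passed. Loxl1, which acts on elastic fibres, differed by -0.14 in Il1a KO and -0.08 in Il1b KO, and Eln, elastin itself, by -0.02 and 0.09.

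Among the secreted and matricellular members, Igf2 stood lowest in Il1a KO. Igf2, a growth factor made by meninges and vessels of the adult nervous system, was at 9.36, 9.89, 9.57 and 9.57 in Il1a KO and 10.04, 9.74, 9.98 and 10.19 in Il1b KO, against 9.89, 10.13, 9.79 and 9.86 in wild type. Il1a KO replicate 2 was the array that overlapped both other groups. The difference from wild type of -0.32 in Il1a KO did not pass (interval -0.57 to -0.07, adjusted p = 0.427), and Il1b KO differed by 0.07. Thbs2, a thrombospondin that limits vessel growth, was at 10.27, 10.36, 10.18 and 10.19 in Il1a KO and 10.43, 10.35, 10.55 and 10.58 in Il1b KO, against 10.19, 10.46, 10.30 and 10.27 in wild type. Its log2 difference was -0.05 in Il1a KO and 0.17 in Il1b KO (adjusted p = 0.295). Sparc, a collagen-binding protein made by many cord cells, was the steadiest member: it ran from 12.99 to 13.05 in Il1a KO and from 13.01 to 13.07 in Il1b KO, against 13.05 to 13.09 in wild type. Postn, periostin, ran from 7.54 to 8.21 in Il1a KO and from 7.58 to 8.04 in Il1b KO, against 7.22 to 8.06 in wild type, and Fstl1 had log2 differences of -0.12 in Il1a KO (adjusted p = 0.469) and -0.06 in Il1b KO. In 4 of the 35 members, Lama2 and Rgs5 higher and Sparc and Fstl1 lower, Il1a KO and wild-type arrays had no overlap, against 5.06% of all genes.

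Set against each other, the knockouts had their smallest p-values among the members in Slc6a13, Igf2, Thbs2 and Lama4, all lower in Il1a KO and none past the test. Slc6a13 was at 8.32, 8.27, 8.22 and 8.24 in Il1a KO, against 8.62, 8.64, 8.46 and 8.56 in Il1b KO. The arrays did not overlap, and the difference of -0.30 had an interval of -0.47 to -0.14 and an adjusted p of 0.162. With only these 2 groups in the fit it passed (adjusted p = 0.0135). The difference was -0.39 in Igf2 (interval -0.64 to -0.15, adjusted p = 0.270) and -0.23 in Thbs2 (adjusted p = 0.278). Lum was the other member whose arrays did not overlap (-0.26, adjusted p = 0.586), which makes 2 of 35, against 4.69% of all genes that were lower without overlap. Over the alternatives run, between 29 and 33 of the 35 members were below 0 in this comparison. Of 18 other markers of meningeal and perivascular fibroblasts, 14 were below 0 as well and 0 passed (median -0.13), and their mean ran from 8.80 to 8.99 in Il1a KO and from 8.96 to 9.08 in Il1b KO. Some other lists had the same direction. Of 10 macrophage markers, among them the matrix gene Fn1, 9 were below 0 and 0 passed (median -0.21). Their mean was 8.93 to 9.13 in Il1a KO, against 9.09 to 9.43 in Il1b KO. Of 9 collagen receptors 9 were below 0 and 0 passed. Further lists went the other way: 21 of 29 other collagen chains were above 0 (median 0.03). So were 7 of 9 smooth muscle, 10 of 14 skeletal muscle and 5 of 6 Schwann cell markers, with 0 past the test. The part of these lists in the members' differences was not tested.

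Within a genotype the interstitial matrix genes varied from array to array, largely together. The SD pooled over the 3 groups was 0.383 for Lox, 0.314 for Ogn and 0.298 for Postn, against a median of 0.0841 over all genes, and 9 of the 35 members were among the 5% of genes with the largest SD. Rgs5 (0.0524), Pdgfrb (0.0455) and Sparc (0.0228) were steadier than the median gene. The mean pairwise correlation of deviations from the group means was 0.276 over the 595 pairs of members and 0.021 over all genes, as a description of 12 arrays. Joint variation was not particular to the members. Over the lists of other genes this mean ran from -0.061 (collagen receptors) to 0.666 (other collagen chains). It was 0.613 in neutrophil, 0.47 in skeletal muscle, 0.376 in fibroblast and 0.257 in pericyte markers. Col1a1 and Col1a2, the chains of collagen I, went together with r = 0.974, and Col1a1 and Col3a1 with r = 0.913. Among the fibril-forming collagens the mean correlation was 0.647, against 0.236 in the basement membrane members and 0.061 in the genes of fibroblasts, pericytes and smooth muscle, where Acta2 and Tagln had r = -0.382.

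Single arrays stood out in this. In Il1a KO replicate 2, 30 of the 35 members were above their group mean, and in wild type replicate 2, 29 were. In wild type replicate 3, 7 were, and its fibril-forming collagens lay 0.22 below the wild-type mean. The mean over the members was 9.13, 9.28, 9.11 and 9.07 in Il1a KO and 9.20, 9.23, 9.25 and 9.31 in Il1b KO, against 9.13, 9.30, 9.11 and 9.22 in wild type. The groups overlapped. The 18 fibroblast markers that are not members ran alongside, at 8.80, 8.99, 8.92 and 8.82 in Il1a KO and 9.02, 9.02, 8.96 and 9.08 in Il1b KO, against 8.93, 9.24, 8.85 and 8.92 in wild type, with the same high arrays in Il1a KO and wild type. Those 2 arrays were picked because the members' mean deviation was highest in them, so a lower member correlation without them follows in part from that choice. Without them the mean pairwise correlation was 0.158 over the members and 0.022 over all genes. Skeletal muscle markers were highest in wild type replicates 1 and 3 (7.62 and 7.64, against 7.29 and 7.42 in wild type replicates 2 and 4), arrays in which the mean over all members was low. Not every role group was low there: in wild type replicate 1 the fibril-forming collagens lay 0.06 above the wild-type mean. The part of these differences in the members' values was not tested.

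**Figure D3:**
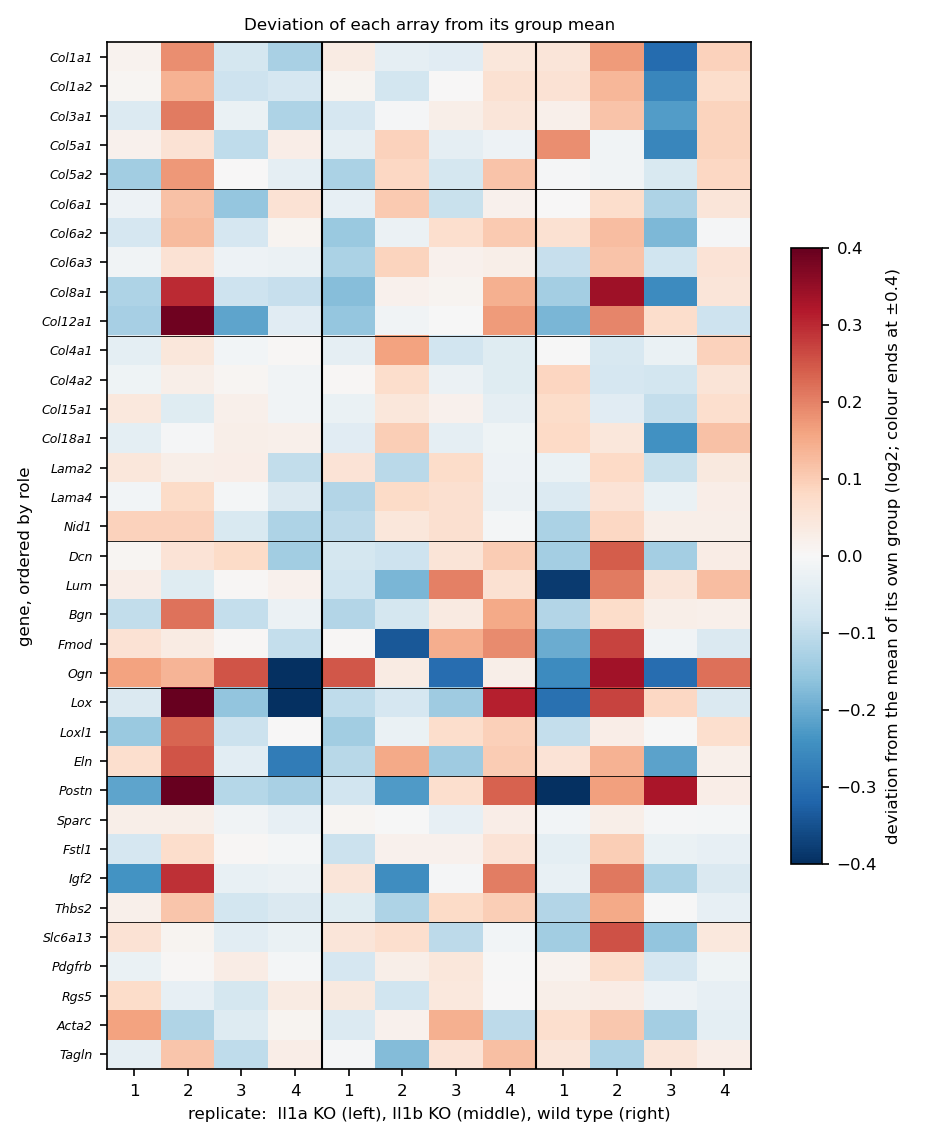
Deviation of each array from its group mean (colour, log2 scale) for the 35 measured members (rows, by role) in the 12 arrays (columns: Il1a KO, Il1b KO, wild type). The columns of Il1a KO replicate 2 and wild type replicate 2 are mostly above 0, wild type replicate 3 is mostly below, and the rows of Rgs5, Pdgfrb and Sparc are pale.

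**Figure D4:**
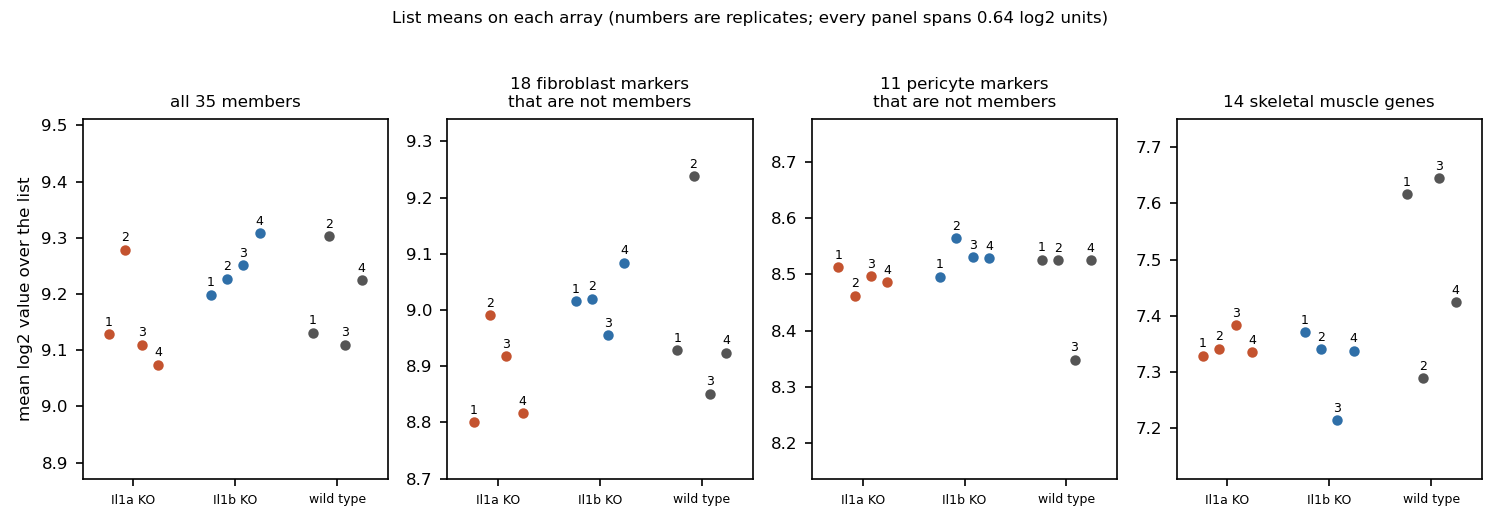
Mean log2 level per array of the 35 members, 18 fibroblast markers, 11 pericyte markers and 14 skeletal muscle markers that are not members (y axes), for Il1a KO, Il1b KO and wild type. Member and fibroblast means are highest in replicate 2 within Il1a KO and within wild type, and 2 wild-type arrays, 7.62 and 7.64, top the muscle panel.

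The rest of the collagen pathway was read from lists of genes outside the 35. Of 20 measured enzymes that fold, modify and process collagen, 1 fell in Il1b KO, against 0.391% of all genes. This was Adamts3, a protease that can remove the amino-terminal propeptide of procollagen. Its level was 9.26, 9.19, 9.13 and 9.07 in Il1a KO and 8.84, 8.83, 8.83 and 8.91 in Il1b KO, against 9.16, 9.14, 9.28 and 9.14 in wild type. Il1b KO lay below all arrays of both other groups, by 0.33 against wild type (log2 fold change -0.33, interval -0.43 to -0.22, limma adjusted p = 0.00504), while Il1a KO differed from wild type by -0.02 (adjusted p = 0.988). The difference between Il1a KO and Il1b KO was 0.31 and passed (adjusted p = 0.00731). Adamts3 had 16 probe sets, of which the brightest is given. The level in Il1b KO was below wild type in 14 of them, and with their mean the difference was -0.16 and did not pass (adjusted p = 0.173). With that mean the difference between Il1a KO and Il1b KO did not pass either (0.20, adjusted p = 0.0994). Of the 20 nearest measured genes around Adamts3, 1 (Cox18) passed in Il1b KO, where 0.813% of all genes did.

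The other enzymes did not pass in either knockout. In Il1a KO 18 of the 20 were below 0 (median -0.07), against 49.8% of all genes, though genes of 1 list need not vary independently. Among them were Plod3, a lysyl hydroxylase (-0.17, adjusted p = 0.343), and Colgalt2, which adds galactose to hydroxylysine (-0.16, adjusted p = 0.329). In Il1b KO 10 of the 20 were below 0, and P4ha1, a subunit of prolyl hydroxylase, was at 0.10 (adjusted p = 0.406). The 29 other collagen chains gave 0 calls in either knockout. At an unadjusted p under 0.05 there were 0 of 29. Over all genes the share was 8.32% in Il1a KO, and 8.42% higher and 4.58% lower in Il1b KO. Their medians were -0.01 in Il1a KO and -0.05 in Il1b KO, with Col8a2 at -0.15 and -0.18, Col6a4 at 0.09 in Il1a KO and Col4a3 at -0.16 in Il1b KO. The 11 other basement membrane genes gave 0 calls (1 of 11 with an unadjusted p under 0.05 in Il1a KO, Nid2 at -0.13, against 8.32% of all genes), and Lama3 was at 0.11 in Il1a KO and Agrn, encoding agrin, at 0.09 in Il1b KO. Of the 9 collagen receptors 0 passed, and Ddr2, the receptor kinase for fibrillar collagen, was at -0.21 in Il1a KO (adjusted p = 0.335), as was the integrin subunit Itga10 at -0.17 (adjusted p = 0.305), while in Il1b KO Lair1 was at 0.08 and Ddr1 at 0.06.

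Of 24 other elastic fibre, proteoglycan and matricellular genes 0 passed. At an unadjusted p under 0.05 there were 5 in Il1a KO, against 8.32% of all genes, and in Il1b KO 3 higher, against 8.42%, and 1 lower, against 4.58%. Mfap5, a microfibril protein, was at 9.30, 9.27, 9.16 and 9.003 in Il1a KO and 8.96, 8.90, 8.83 and 9.08 in Il1b KO, against 8.59, 9.04, 8.40 and 8.82 in wild type. Its difference of 0.47 in Il1a KO did not pass (adjusted p = 0.188), and wild type replicate 2 lay among the Il1a KO arrays. Mfap4, of elastic fibres, was at 0.43 in Il1b KO (adjusted p = 0.212), Tgfbi at -0.22 in Il1a KO (adjusted p = 0.243) and Ltbp2 at -0.25 in Il1b KO (adjusted p = 0.146). Of 18 measured ligands, receptors and targets of TGF-beta and PDGF, the growth factors that drive fibroblasts to make matrix, 0 passed in either knockout. At an unadjusted p under 0.05 there were 3 of 18 in Il1a KO, against 8.32% of all genes. In Il1b KO 3 were higher, against 8.42%, and 1 lower, against 4.58%. Ccn2, a TGF-beta target, was at -0.34 in Il1a KO (adjusted p = 0.297) and -0.24 in Il1b KO (adjusted p = 0.311), and Tgfb3 at 0.18 (adjusted p = 0.328) and 0.17 (adjusted p = 0.215). Skil, a repressor of TGF-beta signalling, was at 0.15 in Il1b KO (adjusted p = 0.198).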

How the data were processed

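Expression was measured with 1-colour whole-transcript arrays, 4 per group. The deposited values are log2 levels per probe set, made by the authors from the scans; GCOS 1.4, RMA, limma and Partek are named in the submitters' processing notes with no role or order given. Their range (2.97 to 14.4) and near-equal array medians (7.67 to 7.72) are those of RMA summaries, though no label states that step. RMA equalises the distribution of all arrays, so a shift in total RNA would not show, and it compresses the changes of dim genes. No detection calls were used. The lowest member mean was 7.69, against a lower quartile of 6.69 (log2) over all genes. Arrays have no read depth, and their number limits the precision.

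The platform's annotation listed 23410 of 35557 probe sets, 21789 with 1 symbol and 1621 with several, which were left out with the 12147 not listed. The probe set with the highest mean stood for a gene where there were several (999 genes). Symbols were updated through Entrez identifiers to RefSeq GRCm38.p6, which matched 19856 of 19938 genes; the sources used here did not give the array annotation's build.

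All 12 arrays entered 1 model, with a mean for each group, in limma 3.58.1 in R 4.3.3 (lmFit, eBayes, two-sided), and p was adjusted by Benjamini-Hochberg over all genes within a comparison (threshold 0.05). The method was tested on simulated data with 200 changed genes. Alternatives were the mean of a gene's probe sets, repeated quantile normalization, median centring, leaving out the dimmest 25% of genes, an intensity trend, robust moderation, array weights, a replicate block, 2 groups in the fit, and leaving out each array. The members, the lists of related genes and markers and the tests were chosen with earlier results of these data known, so they are no independent support. All members are named, and of each related list those past the threshold and the 2 with the smallest p in each knockout, and of marker lists those past the threshold or among the 2 brightest; further names, such as the neighbours of a gene, were chosen after their values were seen.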

Additional observations from a re-analysis of the deposited data

Results flagged for a closer look

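In 11 of 105 combinations of a member and a group, 1 array lay far from the other 3. The cut used flags about 1 in 20 of independent normal values, or 5.25 of 105. The rate over all genes was not computed. Members vary together, and Il1a KO replicate 2 and wild type replicate 2 gave 3 flags each, so 11 is not shown to be an excess. Il1a KO replicate 2 was high in Col6a3 (8.23, the others 8.15), Col8a1 (9.26, the others 8.83 to 8.88) and Postn (8.21, the others 7.54 to 7.64). Wild type replicate 2 was high in Sparc (13.09, the others 13.05 to 13.06) and Fstl1 (10.97, the others 10.84 to 10.85) and low in Tagln (9.04, the others 9.19 to 9.22). Il1a KO replicate 4 was low in Lama2 (8.23, the others 8.35 to 8.37) and Ogn (8.99, the others 9.68 to 9.79). Il1b KO replicate 2 was high in Col4a1 (8.72, the others 8.48 to 8.52) and Col5a1 (8.27, the others 8.14 to 8.15), and Il1b KO replicate 4 was high in Lox (9.36, the others 8.91 to 8.98).

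In Adamts3 the difference between Il1a KO and Il1b KO was itself tested. It passed with the brightest probe set (log2 difference 0.31, limma adjusted p = 0.00731) but not with the mean of its 16 probe sets (0.20, adjusted p = 0.0994).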

How the results depend on the processing

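Of 105 member values, 2 passed, Lama2 and Rgs5 in Il1b KO, and 0 of these reversed in any of 17 alternatives each, though both were lost in 8. Of the values, 33 changed sign in some alternative, none larger than 0.13, and 4 passed only in an alternative. The count of members past the threshold in Il1b KO, 2, was 1 after repeated quantile normalization and 0 with only 2 groups in the fit, and 0 to 3 without 1 array. In Il1a KO it was 1 with array weights and 0 to 1 without 1 array, and between the knockouts 1 with array weights and 1 with only 2 groups in the fit. Array weights were chosen after seeing the data. Over all genes, the count in Il1a KO, 34, was 72 with an intensity trend, 306 with array weights and 15 with 2 groups, and 18 to 49 without 1 array (18 without wild type replicate 4, 19 without Il1a KO replicate 3 or 4). In Il1b KO, 162 became 303, 1145 and 85, and 106 to 177 without 1 array (106 without wild type replicate 4 and 107 without Il1b KO replicate 1). Between the knockouts, 130 became 244 with array weights and 88 to 119 without 1 array. The split in Il1b KO, 84 higher and 78 lower, was 69 and 98 after quantile normalization and 64 and 85 after median centring. The cause of these shifts was not tested.

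The median over the members ran from -0.11 to -0.03 in Il1a KO, 0.00 to 0.06 in Il1b KO and -0.14 to -0.06 between the knockouts over all alternatives. Deviations of arrays with equal replicate numbers correlated at -0.374 to 0.441, with 2 of 12 pairs above 0.1. The highest was between replicate 3 of wild type and of Il1b KO. The labels do not say whether arrays of equal number were handled together. With the replicate number as a block, 26, 120 and 105 genes passed in Il1a KO, in Il1b KO and between the knockouts, and 0 members in each, Lama2 at an adjusted p of 0.112 and Rgs5 at 0.0812; Abcc9, a pericyte marker outside the members, was at 0.0556 in Il1b KO. Changes under 0.25 are near the limit of what 4 arrays a group recover.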

Other observations

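Cells other than those of the matrix are given as values only. Among 10 neutrophil markers Ly6g fell in Il1b KO (log2 fold change -0.55, limma adjusted p = 0.00869) and was at -0.45 in Il1a KO (adjusted p = 0.098), and the medians over the list were -0.35 in Il1a KO and -0.27 in Il1b KO. At an unadjusted p under 0.05 there were 5 of 10 in Il1a KO, against 8.32% of all genes. In Il1b KO there were 4, all lower, against 4.58%. Mmp9, the brightest of the list, was at -0.35 in Il1a KO and -0.29 in Il1b KO (adjusted p = 0.258), and passed in neither. Of 14 endothelial markers 0 passed in either knockout, and the medians were -0.01 and 0.00. At an unadjusted p under 0.05 there were 3 of 14 in Il1a KO, against 8.32% of all genes. In Il1b KO 2 were higher, against 8.42%, and 1 lower, against 4.58%. Slc2a1, the glucose transporter and the brightest of them, was at 0.01 in Il1a KO and -0.01 in Il1b KO, and Cdh5, the cadherin of endothelial junctions, was at -0.19 in Il1a KO (adjusted p = 0.340) and -0.06 in Il1b KO. Of 14 skeletal muscle markers 13 were below 0 in each knockout and 0 passed, and their second brightest, Acta1, was at -0.31 in Il1a KO and -0.35 in Il1b KO. At an unadjusted p under 0.05 there were 5 of the 14 in Il1a KO, against 8.32% of all genes. In Il1b KO 1 was higher, against 8.42%, and 6 lower, against 4.58%. Pygm, the muscle glycogen phosphorylase, which astrocytes also express, was the brightest and the 1 above 0 (0.22 in Il1a KO and 0.15 in Il1b KO). Fn1, fibronectin, was the brightest of the macrophage list and also stands in the list of other matricellular genes. It was at -0.19 in Il1a KO and 0.06 in Il1b KO. Lyz2, a lysozyme of macrophages and neutrophils and the second brightest, was at -0.05 in Il1a KO and 0.50 in Il1b KO (limma adjusted p = 0.0843). In all, 0 of the 10 macrophage markers passed the test. Markers of bone and cartilage (11 measured) and of Schwann cells (6 measured) gave 0 calls, with medians of -0.01 and 0.11 in Il1a KO and -0.04 and 0.10 in Il1b KO. Drp2, the brightest Schwann cell marker, was at 0.17 in Il1a KO and 0.13 in Il1b KO.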
